A study of Mus musculus with 8 samples.

Results

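The step from zeitgeber time (ZT) 6 to ZT12 was followed in epithelial crypts of the mouse colon by bulk RNA sequencing. ZT counts the hours from the onset of light. Per the methods of the study the mice lived in 12 h of light and 12 h of darkness with free access to food and water, so that this step covers the later part of the light phase, in which mice rest. The labels give all samples the genotype WT and name no treatment, and the methods describe adult mice on a C57BL/6 background. Crypts were loosened with EDTA, scraped from the opened large intestine and passed through a strainer, a procedure that enriches epithelium and does not sort cells. The comparison set 2 libraries at ZT12 against 2 libraries at ZT6, named replicate 1 and replicate 2 after their labels. The 4 libraries of ZT0 and ZT18 entered the same model only to estimate the spread between replicates and to test the difference from the preceding step. The labels do not say whether the libraries of a time point came from separate animals, and a caption of the study counts more mice per group than these 2 libraries, so p-values measure the spread between these samples, which may be partly technical. Genes with a mean normalised count (reads divided by 1 size factor per library) of at least 10 over the 8 libraries were taken, which gave 13503 of the 14247 genes in the table. The gene closest above this limit was 9330104G04Rik with a mean of 10.008, and the closest below it was Abcb1b with a mean of 9.99.

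The circadian clock is a transcriptional feedback loop that runs in nearly every cell. BMAL1 (encoded by Arntl) pairs with CLOCK or NPAS2 and binds E-box sequences in the promoters of the Per and Cry genes, whose products then repress BMAL1 and its partners. A coupled loop of nuclear receptors (REV-ERB and ROR proteins) acts on Arntl and Nfil3 through ROR response elements, and factors of the PAR bZIP family (DBP, TEF) act through D-boxes. In the colon the clock is known for timing transport, digestion and renewal of the epithelium with feeding and rest.

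Over these 6 h the Period genes, the PAR bZIP factors and Ciart were higher at ZT12, with 2.77-fold to 5.27-fold higher mean normalised counts for Per1, Per2, Per3, Dbp, Tef and Ciart. Sprr1a, Sprr2a1, Sprr2a2, the claudin gene Cldn4, the chemokine gene Ccl20 and the mitochondrially encoded genes were lower. Markers of smooth muscle and fibroblasts were also higher at ZT12, mostly in 1 of the 2 libraries. No gene passed the limma test over all genes at an adjusted p of 0.05 (0 of 13503, 0%). The smallest limma adjusted p was 0.0543, that of Per2. An unadjusted p under 0.05 was reached by 915 genes (6.78%), of which 451 were higher (3.34%) and 464 lower (3.44%) at ZT12. The edgeR quasi-likelihood test on the recovered reads also called 0 genes, with 906 at an unadjusted p under 0.05 (6.71%). DESeq2 on the same reads, the tool of the study, called 49 genes (0.363%), 26 higher (0.193%) and 23 lower (0.17%), and gave 2095 genes no adjusted p. In the text below a gene is therefore described by its values, and a DESeq2 call is named as one.

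To show the sequence elements through which the clock acts, 4 promoters of clock genes described below are printed from RefSeq (build GRCm38.p6), each from 250 bases before to 50 bases after an annotated start of transcription. Capitals mark an E-box (CACGTG), an E'-box (CACGTT, or AACGTG when read on the other strand) or a D-box (TTATGTAA, or TTACATAA on the other strand), searched on both strands. Ciart is shown for its 3 E-boxes, Per3 for its 2 D-boxes, and Per1 and Cry1 for 1 E-box each, with an E'-box beside it in Cry1.
Ciart, chr3:95882179-95882478, minus strand: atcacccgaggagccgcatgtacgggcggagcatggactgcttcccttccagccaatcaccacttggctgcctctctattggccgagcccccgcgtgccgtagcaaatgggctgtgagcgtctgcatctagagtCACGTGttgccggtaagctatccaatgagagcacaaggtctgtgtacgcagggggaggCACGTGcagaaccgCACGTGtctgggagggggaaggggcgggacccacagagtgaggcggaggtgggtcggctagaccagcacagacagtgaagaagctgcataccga
Per3, chr4:151044616-151044915, minus strand: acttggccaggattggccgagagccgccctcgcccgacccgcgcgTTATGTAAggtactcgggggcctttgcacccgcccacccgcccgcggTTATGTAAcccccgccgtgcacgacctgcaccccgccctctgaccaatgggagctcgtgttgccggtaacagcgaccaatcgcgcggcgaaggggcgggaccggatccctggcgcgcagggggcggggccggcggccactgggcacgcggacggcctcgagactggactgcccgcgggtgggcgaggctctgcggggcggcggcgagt
Per1, chr11:69098699-69098998, plus strand: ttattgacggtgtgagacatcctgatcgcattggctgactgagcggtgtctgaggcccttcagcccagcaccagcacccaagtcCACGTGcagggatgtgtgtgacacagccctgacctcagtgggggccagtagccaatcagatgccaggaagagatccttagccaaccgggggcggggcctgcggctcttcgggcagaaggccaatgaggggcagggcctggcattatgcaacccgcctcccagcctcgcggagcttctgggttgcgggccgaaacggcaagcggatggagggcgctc
Cry1, chr10:85185005-85185304, minus strand: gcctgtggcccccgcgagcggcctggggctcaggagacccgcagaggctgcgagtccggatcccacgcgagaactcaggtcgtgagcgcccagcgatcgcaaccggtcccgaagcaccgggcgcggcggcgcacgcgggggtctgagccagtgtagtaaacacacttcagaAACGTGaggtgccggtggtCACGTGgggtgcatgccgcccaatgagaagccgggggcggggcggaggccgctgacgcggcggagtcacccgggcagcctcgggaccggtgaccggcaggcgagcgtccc
Windows were matched by symbol for 29 of 37 genes, which are the tested clock genes and the 20 genes with the smallest p described below. An E-box was found in the windows of 5 of the 12 matched clock genes whose ZT12 libraries were both above both ZT6 libraries (Per1, Tef, Ciart, Cry1 and Cipc), against 8.09% of the 27025 genes in the RefSeq table. Of the same 12 genes, 1 held a D-box (1.11% of all genes), 2 an E'-box (5.44%) and 2 the core letters of a ROR response element, AGGTCA (18.1%). The 3 matched clock genes that were lower at ZT12 held no E-box and no D-box, and 2 of them held AGGTCA. None of these 12 or 3 genes held a cAMP response element (TGACGTCA), which 2.03% of all genes hold. These matches describe letters in short windows.

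The depth of the 4 libraries ran from 14722342 to 17492669 reads, and a count of 0 allows up to 3 reads, which is 2.81 to 3.70 normalised counts here. This limit covers counting error only. The labelled cell type was borne out by all 10 epithelial markers, Epcam, Cdh1 and keratins among them, whose summed level was 345886 and 308120 normalised counts at ZT6 and 282612 and 341226 at ZT12. The 4 libraries differed in 2 other respects. The mitochondrial genome took 19.2% and 19.4% of the counts at ZT6 and 6.68% and 7.85% at ZT12, and markers of the gut wall stood out in ZT12 replicate 1, as given with the stromal genes below. Over all genes, log2 values correlated at 0.975 between the ZT6 libraries and at 0.950 between the ZT12 libraries. The ZT12 libraries were both above or both below the ZT6 libraries for 6166 genes (45.7%), higher for 3174 (23.5%) and lower for 2992 (22.2%), and the median fitted difference over all genes was 0.01 on the log2 scale.

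Among the repressors of the clock, all 5 tested genes were higher at ZT12 in both libraries and at an unadjusted p under 0.05 (background 3.34%). Per2 (chr1:91415982-91459324), a Period gene whose protein binds cryptochromes and enters the nucleus to repress CLOCK and BMAL1, stood at 411 and 302 normalised counts at ZT6 and at 2068 and 1692 at ZT12. The fitted difference was 2.40 ± 0.25 (SE) on the log2(normalised count + 1) scale, which applies to all fitted differences here, with a limma adjusted p of 0.0543 and a DESeq2 adjusted p of 5.55e-14. The ZT12 and ZT6 libraries of Per2 did not overlap, and the levels at ZT0 (487 and 716) were closer to ZT6 than to ZT12. Per1 (chr11:69095217-69109960), the Period gene that also responds quickly to hormones, measured 338 and 403 at ZT6 against 1570 and 1170 at ZT12 (1.88 ± 0.25, limma adjusted p 0.175, DESeq2 adjusted p 9.16e-08). Per3 (chr4:151003652-151044665) measured 457 and 420 against 1784 and 1341 (1.82 ± 0.29, limma adjusted p 0.278, DESeq2 adjusted p 7.99e-06). In all 3 Period genes ZT12 replicate 1 was the higher of the ZT12 libraries, and without it the differences were 2.26, 1.66 and 1.61. Per3 overlaps Camta1 on the same strand, and Camta1 differed by -0.02 ± 0.25. The cryptochromes, partners of the Period proteins, showed smaller differences. Cry2 went from 509 and 561 at ZT6 to 936 and 925 at ZT12 (0.80 ± 0.22, limma adjusted p 0.697). Cry1 was at 265 and 312 at ZT6 and at 419 and 481 at ZT12 (0.64 ± 0.19, limma adjusted p 0.705), both below its ZT0 level of 935 and 863. Neither cryptochrome was called by DESeq2.

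Of the 3 tested activators, 2 lay on the other side, lower in both ZT12 libraries (background 22.2%), and 1 overlapped. Their median difference was -0.76. With the level of smooth muscle and fibroblast markers as a covariate it was -0.03, and 0 were lower at an unadjusted limma p under 0.05 (background 2.37%). Most of these markers were themselves higher in both ZT12 libraries, so the covariate cannot separate their RNA from time. Arntl had 679 and 557 normalised counts at ZT6 and 301 and 436 at ZT12 (-0.76 ± 0.27, unadjusted limma p 0.0200). Npas2, which can replace CLOCK as the partner of BMAL1, had 625 and 585 against 204 and 409 (-1.06 ± 0.33, unadjusted limma p 0.0105). For both genes ZT12 replicate 1 was the lower library, and without it the differences were -0.50 and -0.56. Clock itself had overlapping libraries (1798 and 1763 against 1667 and 1785) and a difference of -0.05 ± 0.23, which was 0.00 without ZT12 replicate 1. Arntl overlaps Gm45355 on the opposite strand, and strand use in counting is not given in the sources used here.

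Of 4 tested nuclear receptors of the clock, 3 were higher in both ZT12 libraries (background 23.5%), 0 were lower in both (22.2%) and 1 overlapped. Nr1d2, which encodes the repressor REV-ERB beta, was at 1278 and 1322 against 2630 and 1874 (0.77 ± 0.21, limma adjusted p 0.697). Its paralog Nr1d1 (REV-ERB alpha) overlapped, with 1830 and 1352 at ZT6 and 1685 and 1306 at ZT12 (-0.08 ± 0.34), and the sign of this difference turned without ZT12 replicate 2 or ZT6 replicate 1. Rora was low in all libraries, with 3.70 and 9.79 against 29.0 and 15.0. Nr1d1 overlaps Thra on the opposite strand, which was at 660 and 722 against 592 and 628.

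The output arm showed the same direction for both PAR bZIP factors. Dbp, an activator at D-boxes, had 482 and 361 normalised counts at ZT6 and 1593 and 1113 at ZT12 (1.67 ± 0.30, limma adjusted p 0.311, DESeq2 adjusted p 2.08e-05). Tef had 1259 and 1354 against 4001 and 3239 (1.46 ± 0.28, limma adjusted p 0.469, DESeq2 adjusted p 0.000367). Nfil3, which represses at the same D-boxes, lay on the other side with 59.1 and 79.4 at ZT6 and 17.8 and 26.5 at ZT12 (-1.61 ± 0.41, limma adjusted p 0.697). Dbp overlaps Sphk2 on the opposite strand, which was lower in both ZT12 libraries (1931 and 1633 against 1360 and 1526). Of the auxiliary factors, Ciart, a repressor that binds BMAL1, went from 136 and 78.3 to 441 and 407 (2.03 ± 0.43, limma adjusted p 0.697, DESeq2 adjusted p 0.00388). Cipc, an inhibitor of CLOCK, was at 3376 and 2963 against 5318 and 4372 (0.61 ± 0.17), and Usp2, a deubiquitinase, at 705 and 508 against 1516 and 914 (0.98 ± 0.33). Bhlhe40, a repressor at E-boxes, was at 2406 and 2099 against 3077 and 2992 (0.43 ± 0.19). The genes that modify or degrade clock proteins showed fitted differences between -0.03 (Csnk1e) and 0.26 (Csnk1d), and the libraries of Csnk1e and Btrc overlapped. Of 5 genes listed as clock outputs, 1 was higher at an unadjusted limma p under 0.05 (background 3.34%). This was Wee1, a kinase that delays entry into mitosis, with 281 and 259 at ZT6 and 579 and 533 at ZT12 (1.04 ± 0.32, limma adjusted p 0.705).

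Of the 27 genes in the 5 clock lists, 24 were tested, and 13 were higher and 3 lower at an unadjusted p under 0.05, beside 3.34% and 3.44% of all genes. The ZT12 libraries did not overlap the ZT6 libraries for 19 of them, 16 higher (23.5% of all genes) and 3 lower (22.2%). DESeq2 called 7 of the 24 (0.363% of all genes), Per2, Per1, Per3, Dbp, Tef and Ciart among them. Without ZT12 replicate 1, 10 were higher and 1 lower at an unadjusted p under 0.05, where 1.73% and 1.9% of all genes were. With the level of smooth muscle and fibroblast markers as a covariate (the stromal covariate), 8 were higher and 0 lower, beside 1.5% and 2.37% of all genes.

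**Figure D1:**
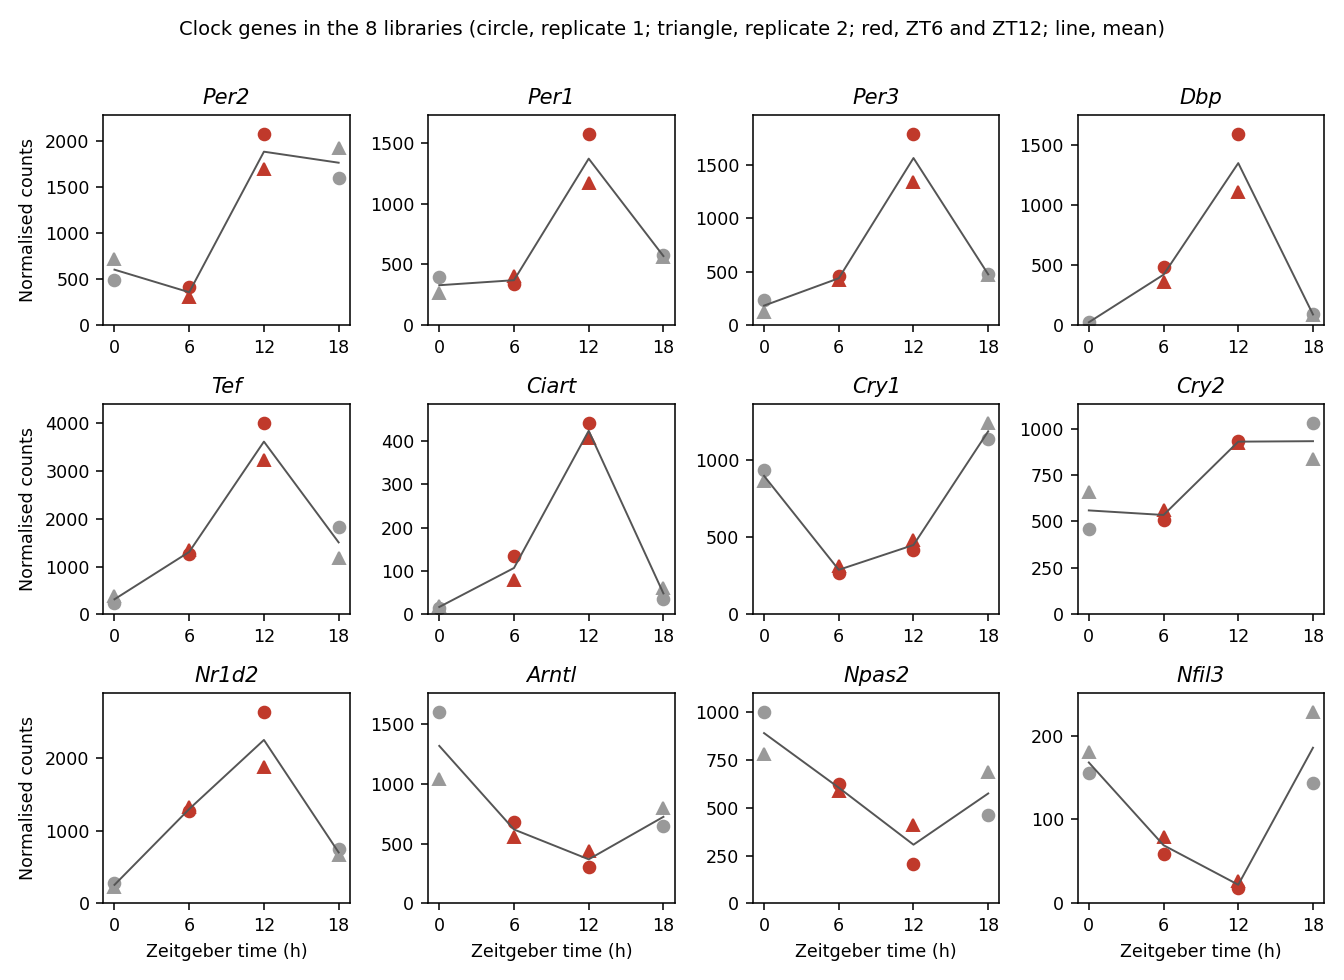
Normalised counts (y axis) of 12 clock genes against zeitgeber time in hours (x axis) in the 8 libraries, with circles for replicate 1, triangles for replicate 2, red for ZT6 and ZT12 and a line through the means. Per2 lies between 302 and 411 at ZT6 and between 1692 and 2068 at ZT12, while Arntl, Npas2 and Nfil3 are lower in both ZT12 libraries.

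Outside the clock lists, the genes with the smallest p that were higher at ZT12 were Fam124a, Tmem260 and Mthfd1l. Fam124a (chr14:62555737-62608486), a gene of poorly known function, was at 7.39 and 11.97 normalised counts at ZT6 and at 191 and 186 at ZT12 (4.18 ± 0.71, limma adjusted p 0.290, DESeq2 adjusted p 1.26e-05). The ZT12 libraries lay close together, but at ZT0 replicates 1 and 2 were at 28.8 and 160. Tmem260, which encodes a membrane protein of the endoplasmic reticulum, was at 245 and 224 against 660 and 485 (1.27 ± 0.23, DESeq2 adjusted p 0.00330). Mthfd1l, a mitochondrial enzyme of folate metabolism, was at 152 and 157 against 419 and 317 (1.24 ± 0.26, DESeq2 adjusted p 0.0289). S100g, named after its values were seen, encodes the vitamin D-dependent calcium carrier calbindin-D9k and was at 224 and 227 against 1042 and 1213 (2.31 ± 0.50, limma adjusted p 0.697, DESeq2 adjusted p 0.000412). The 2 libraries of ZT18 were far apart for S100g, at 229 and 891.

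The genes that were lower at ZT12 with the smallest p included 3 small proline-rich proteins, which are cross-linked into the envelope of squamous and stressed epithelial cells. Sprr1a (chr3:92483952-92485895) was at 623 and 893 normalised counts at ZT6 and at 73.0 and 57.6 at ZT12, an 11.6-fold lower mean (-3.50 ± 0.69, limma adjusted p 0.535, DESeq2 adjusted p 9.07e-06). Sprr2a1 was at 2740 and 2385 against 1065 and 782 (-1.49 ± 0.21, limma adjusted p 0.184, DESeq2 adjusted p 2.96e-06). Sprr2a2 was at 4901 and 3721 against 1756 and 1356 (-1.47 ± 0.22, DESeq2 adjusted p 4.58e-06). Sprr2a1 and Sprr2a2 overlap each other on the same strand and are close copies, so that their counts cannot be assigned with certainty. Their ZT18 libraries (812 to 1915) were near the ZT12 level.

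Cldn4 (chr5:134945119-134946934), a claudin of the tight junction, was at 1923 and 1703 at ZT6 and at 702 and 912 at ZT12 (-1.18 ± 0.19, limma adjusted p 0.278, DESeq2 adjusted p 0.000196), and at 1858 and 1634 at ZT18. Bok, a pro-apoptotic member of the BCL2 family, was at 591 and 531 against 180 and 252 (-1.39 ± 0.31, limma adjusted p 0.697, DESeq2 adjusted p 0.0222). Polr1d, a subunit shared by RNA polymerases I and III, was at 1966 and 2063 against 1150 and 958 (-0.94 ± 0.19, DESeq2 adjusted p 0.0127). For each of these 3 genes the ZT12 libraries were the lowest 2 of the 8. Nfkbiz, an inducible regulator of NF-kB target genes, was at 1381 and 1661 against 738 and 849 (-0.94 ± 0.21, DESeq2 adjusted p 0.0289). Miip was at 850 and 794 against 316 and 221 (-1.63 ± 0.28, DESeq2 adjusted p 0.000302), and Fcho1, which acts in clathrin-mediated endocytosis, at 213 and 256 against 85.2 and 51.9 (-1.80 ± 0.37, DESeq2 adjusted p 0.0141). Ccl20, the epithelial chemokine that attracts CCR6-bearing lymphocytes, was at 134 and 275 against 23.4 and 19.6 (-3.11 ± 0.80, limma adjusted p 0.697, DESeq2 adjusted p 0.0129). Casp4, an inflammatory caspase named after its values were seen, was at 1435 and 1487 against 449 and 617 (-1.47 ± 0.37, DESeq2 adjusted p 0.0284), though its ZT18 libraries were apart at 1627 and 643.

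**Figure D2:**
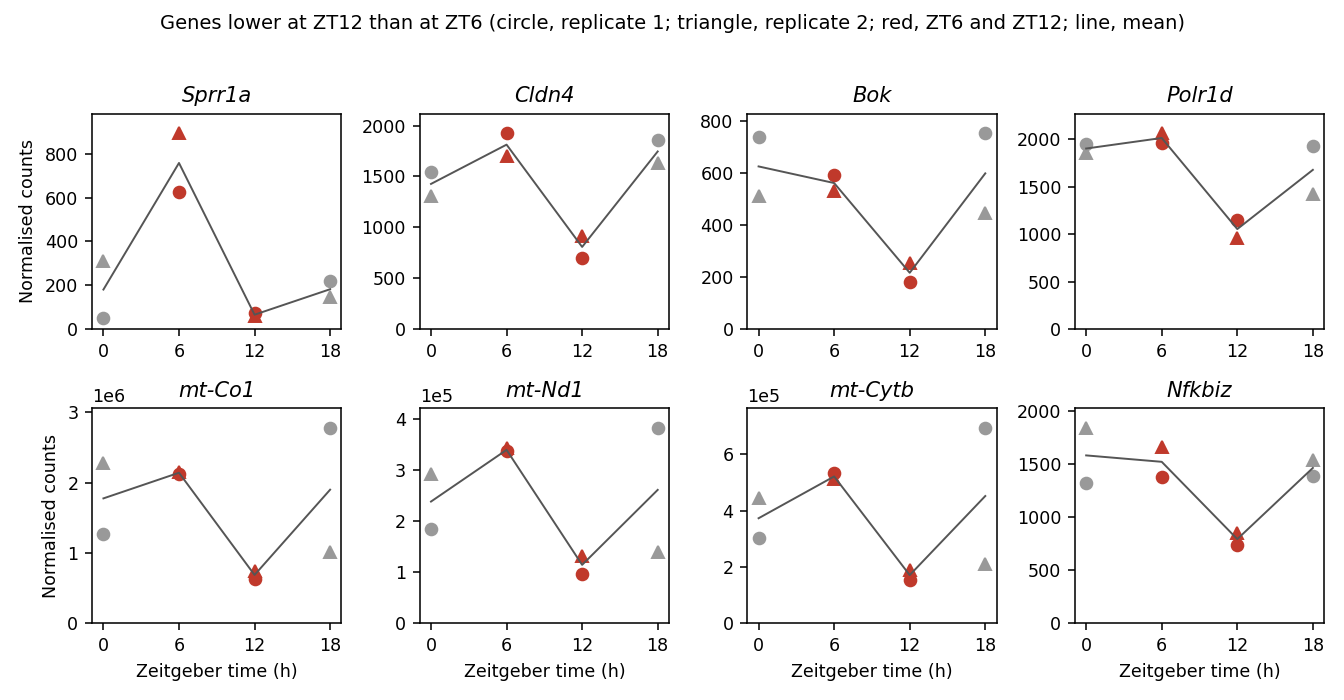
Normalised counts (y axis) of 8 genes that were lower at ZT12 against zeitgeber time in hours (x axis) in the 8 libraries, drawn as for the clock genes; the 3 mitochondrially encoded genes have axes in units of 1e6 or 1e5. Sprr1a was at 623 and 893 at ZT6 and at 73.0 and 57.6 at ZT12, and for Cldn4, Bok and Polr1d the ZT12 libraries are below the other 6.

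The mitochondrial genome encodes subunits of the respiratory chain and the ATP synthase. All 12 of its tested genes were lower in both ZT12 libraries than in both ZT6 libraries (background 22.2%), with fitted differences between -2.17 and -1.34 and a median of -1.61. At an unadjusted p under 0.05, 10 of the 12 were lower (background 3.44%), and DESeq2 called 6 (background 0.17%). mt-Co1, a catalytic subunit of cytochrome c oxidase, was at 2126550 and 2158690 normalised counts at ZT6 and at 627500 and 749170 at ZT12, a 3.11-fold lower mean (limma adjusted p 0.805, DESeq2 adjusted p 0.00881). mt-Nd1, a subunit of complex I, was at 336627 and 342931 against 97336 and 131732 (2.97-fold lower), and mt-Cytb, of complex III, at 532120 and 510682 against 154217 and 188097 (3.05-fold lower). The ZT6 libraries lay close together and so did the ZT12 libraries, but replicates were far apart at the other times, with mt-Co1 at 1269500 and 2285880 at ZT0 and at 2783140 and 1019960 at ZT18. The differences were nearly the same when libraries were scaled to reads outside the mitochondrial genome (median -1.60). Without ZT12 replicate 1 the median was -1.42, and the number with an unadjusted p under 0.05 fell to between 3 and 5 when any of the 4 libraries was left out (3 without this library, 5 without the other at ZT12, 3 and 4 without ZT6 replicates 1 and 2). mt-Co2, mt-Atp6, mt-Co3, mt-Nd3 and mt-Nd4l had no more than 823 counts in these 4 libraries and have copies in the nuclear genome, so their assignment is uncertain. Of these, mt-Co2 and mt-Atp6 are among the 6 DESeq2 calls above, and mt-Atp6 is the gene with the difference of -2.17.

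Transport genes of the surface colonocyte were grouped next. Aldosterone acts in the distal colon on the epithelial sodium channel, its regulators and the sodium pump, and 9 of 10 genes of that list had a fitted difference above 0 (background 50.9%), with a median of 0.51 and, at an unadjusted p under 0.05, 2 higher and 1 lower (background 3.34% and 3.44%). Sgk1, the kinase that holds the channel at the membrane, was at 2622 and 2832 at ZT6 and at 4265 and 6942 at ZT12 (1.00 ± 0.24, limma adjusted p 0.697, DESeq2 adjusted p 0.0127). Scnn1g, the gamma subunit of the channel, was at 50.5 and 33.7 against 214 and 129 (1.99 ± 0.62, limma adjusted p 0.705). Nedd4l, the ligase that removes the channel, was at 2516 and 2468 against 1934 and 1747 (-0.44 ± 0.18, limma adjusted p 0.731). When ZT12 replicate 1 was left out the median of this list was 0.10, with 6 of 10 above 0. Without ZT12 replicate 2 it was 0.59, without ZT6 replicate 2 it was 0.43, and with the stromal covariate 0.22. Of 13 genes of water and ion transport, 4 were higher (background 3.34%) and 0 lower (3.44%) at an unadjusted p under 0.05, with a median of 0.17. These were Car2, a carbonic anhydrase (13555 and 14445 against 20788 and 27441, 0.77 ± 0.24), the water channel Aqp4 (5310 and 5141 against 7769 and 8050, 0.60 ± 0.21), the sodium-proton exchanger Slc9a3 (7773 and 8096 against 12298 and 9862, 0.47 ± 0.19) and the chloride-bicarbonate exchanger Slc26a3 (25980 and 18040 against 36649 and 42882, 0.87 ± 0.37). With the stromal covariate the count of higher genes was 2 (background 1.5%), and the median was 0.38. Leaving out ZT12 replicates 1 and 2 gave medians of 0.25 and 0.57, and leaving out ZT6 replicates 1 and 2 gave 0.25 and 0.19. Among 15 nutrient transporters, 1 was higher (background 3.34%) and 2 lower (3.44%) at an unadjusted p under 0.05, with a median of 0.23. This median was 0.05 without ZT12 replicate 1, 0.41 without ZT12 replicate 2 and -0.10 with the stromal covariate. Slc5a1, the sodium-glucose transporter, was at 3315 and 3257 against 6133 and 4803 (0.72 ± 0.21). Slc16a1, which carries butyrate and lactate, was at 8457 and 8374 against 6179 and 5743 (-0.50 ± 0.17).

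Genes induced by glucocorticoids did not share a direction. Of 14 tested, 4 were higher (background 3.34%) and 2 lower (3.44%) at an unadjusted p under 0.05, and the median was 0.05. The higher count was 2 without ZT6 replicate 1. Beside Per1 and Sgk1, the higher genes were Fkbp5, a co-chaperone of the receptor (1899 and 2022 against 3825 and 3063, 0.80 ± 0.25), and Ddit4, an inhibitor of mTORC1 (542 and 696 against 917 and 1465, 0.91 ± 0.27). The lower genes were Nfkbia, an inhibitor of NF-kB (1055 and 1173 against 682 and 664, -0.72 ± 0.18), and Cebpd, a transcription factor (651 and 794 against 269 and 364, -1.20 ± 0.32). Of 17 immediate early genes, 15 had a fitted difference below 0 (background 49.1%), with a median of -0.14. At an unadjusted limma p under 0.05, 3 were lower (background 3.44%), Egr1, Atf3 and Jun. Egr1 was at 394 and 315 at ZT6 and at 173 and 197 at ZT12 (-0.93 ± 0.24, limma adjusted p 0.697). Without ZT12 replicate 1 the median of the immediate early genes was 0.04 and 7 of 17 were below 0, and with the stromal covariate the median was 0.19.

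In metabolism, 3 of 12 genes of fatty acid synthesis were higher (background 3.34%) and 0 lower (3.44%) at an unadjusted p under 0.05, with a median of 0.24. With the stromal covariate 1 was higher at that p (background 1.5%), with a median of 0.20. The median ran from 0.13 without ZT12 replicate 1 to 0.46 without ZT12 replicate 2. Fads1, a desaturase of long-chain fatty acids, was at 158 and 164 at ZT6 and at 275 and 289 at ZT12 (0.81 ± 0.24). The stearoyl-CoA desaturases were at 579 and 674 against 1296 and 948 for Scd1 (0.83 ± 0.29) and at 12293 and 16390 against 27052 and 25091 for Scd2 (0.88 ± 0.31). For these 3 desaturases both ZT12 libraries were above both ZT6 libraries. The 22 cholesterol synthesis genes had a median of 0.07, with 1 higher (background 3.34%) and 1 lower (3.44%) at an unadjusted p under 0.05. This median turned to -0.18 without ZT12 replicate 1, to -0.12 without ZT6 replicate 1 and to -0.07 with the stromal covariate. Mvd, an enzyme of the mevalonate pathway, was at 1497 and 1808 against 835 and 1061 (-0.80 ± 0.24). Of 18 genes of fatty acid oxidation 1 had an unadjusted limma p under 0.05 (background 6.78%), and the median was -0.08. This gene was Ppargc1a, a coactivator of mitochondrial biogenesis (667 and 766 against 1213 and 1160, 0.73 ± 0.21). Of 18 xenobiotic metabolism genes 1 also had such a p (background 6.78%), the carboxylesterase Ces2a, with 7935 and 8232 against 6216 and 4617 (-0.59 ± 0.25).

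In the cell cycle, 16 of 23 genes of DNA replication had a fitted difference above 0 (background 50.9%), with a median of 0.27 and 3 higher at an unadjusted p under 0.05 (3.34%). Leaving out ZT12 replicate 2 lowered the median to 0.08, and leaving out ZT12 replicate 1 raised it to 0.39. Without ZT6 replicates 1 and 2 it was 0.20 and 0.25. Pola1, the catalytic subunit of DNA polymerase alpha, was at 91.2 and 76.2 against 169 and 172 (1.02 ± 0.33), the ribonucleotide reductase gene Rrm1 at 462 and 479 against 690 and 753 (0.62 ± 0.21), and the helicase gene Mcm2 at 290 and 339 against 421 and 462 (0.49 ± 0.21). Of 20 genes of mitosis 17 were below 0 (background 49.1%), with a median of -0.20 and 0 at an unadjusted p under 0.05. The sign of this median turned without ZT6 replicate 1 (0.01, with 9 of 20 below 0) and with the stromal covariate (0.02). The proliferation marker Mki67 was at 3574 and 2575 against 2628 and 2458 (-0.26 ± 0.19) and overlapped.

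Among stress responses, 17 of 22 genes of the unfolded protein and integrated stress response were above 0 (background 50.9%), with a median of 0.18. Herpud1, a component of the degradation machinery of the endoplasmic reticulum, was at 1696 and 1653 against 2803 and 2413 (0.64 ± 0.19), whereas the transcription factors Atf4 (2984 and 2972 against 1866 and 2168, -0.57 ± 0.18) and Ddit3 (322 and 374 against 116 and 250, -1.02 ± 0.38) were lower in both ZT12 libraries. The heat shock list had a median of 0.10, which rose to 0.28 when ZT12 replicate 1 was left out and was -0.0059 when the other ZT12 library was. Of its 18 genes 2 were higher at an unadjusted p under 0.05 (background 3.34%), and 0 were with the stromal covariate (background 1.5%). Hsph1, a co-chaperone, was at 291 and 307 against 449 and 579 (0.77 ± 0.26). The cold-inducible genes were on opposite sides, Cirbp at 793 and 764 against 462 and 483 (-0.72 ± 0.29) and Rbm3 at 1237 and 1257 against 1755 and 1577 (0.42 ± 0.18). Of 23 pro-apoptotic genes 18 were below 0 (background 49.1%), with a median of -0.09. Both ZT12 libraries were lower for 10 of them (background 22.2%) and higher for 1 (23.5%), and 12 overlapped. The summed level of the 23 genes was 21169 and 20557 at ZT6 and 17169 and 22778 at ZT12. Bok (above) and Bid (455 and 494 against 270 and 367, -0.59 ± 0.26) were lower at an unadjusted p under 0.05 (background 3.44%). Once ZT12 replicate 1 was dropped, 15 of the 23 were below 0 (median -0.10), and 19 once replicate 2 was (-0.17). The stromal covariate put 14 below 0 (-0.10), with 0 lower at that p (background 2.37%). Of 9 anti-apoptotic genes, 1 was higher (background 3.34%) and 1 lower (3.44%) at that p. Bcl2l2 was the higher gene (924 and 1014 against 1342 and 1407, 0.50 ± 0.17) and Birc3 the lower (1931 and 1884 against 1140 and 1138, -0.74 ± 0.24).

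In barrier and defence, 2 of 15 tight junction genes were lower at an unadjusted limma p under 0.05 (background 3.44%), Cldn4 and Cldn8. Cldn8, a claudin of sodium-retaining epithelia, was at 1798 and 1587 against 717 and 796 (-1.16 ± 0.30, limma adjusted p 0.697). Of 14 antimicrobial genes 1 was lower at that p (background 3.44%). This was Nos2, which encodes inducible nitric oxide synthase, at 175 and 248 against 64.6 and 42.7 (-1.97 ± 0.51, limma adjusted p 0.697, DESeq2 adjusted p 0.0629). Of 24 interferon-stimulated genes 20 were below 0 (background 49.1%), with a median of -0.35, and Cxcl10, an interferon-induced chemokine, was at 56.7 and 60.9 against 16.9 and 16.1 (-1.77 ± 0.61). The sign of the median of the interferon-stimulated genes rested on ZT12 replicate 1. This median became 0.07 when that library was left out and -0.80 when the other was. Of 7 MHC class II genes 6 were higher in both ZT12 libraries (background 23.5%), with a median of 1.39 (0.17 with the stromal covariate) and 0 at an unadjusted p under 0.05. H2-Aa was at 83.8 and 46.8 against 258 and 433 (2.40 ± 1.09), and ZT0 replicates differed far more, at 49.7 and 931.

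**Figure D3:**
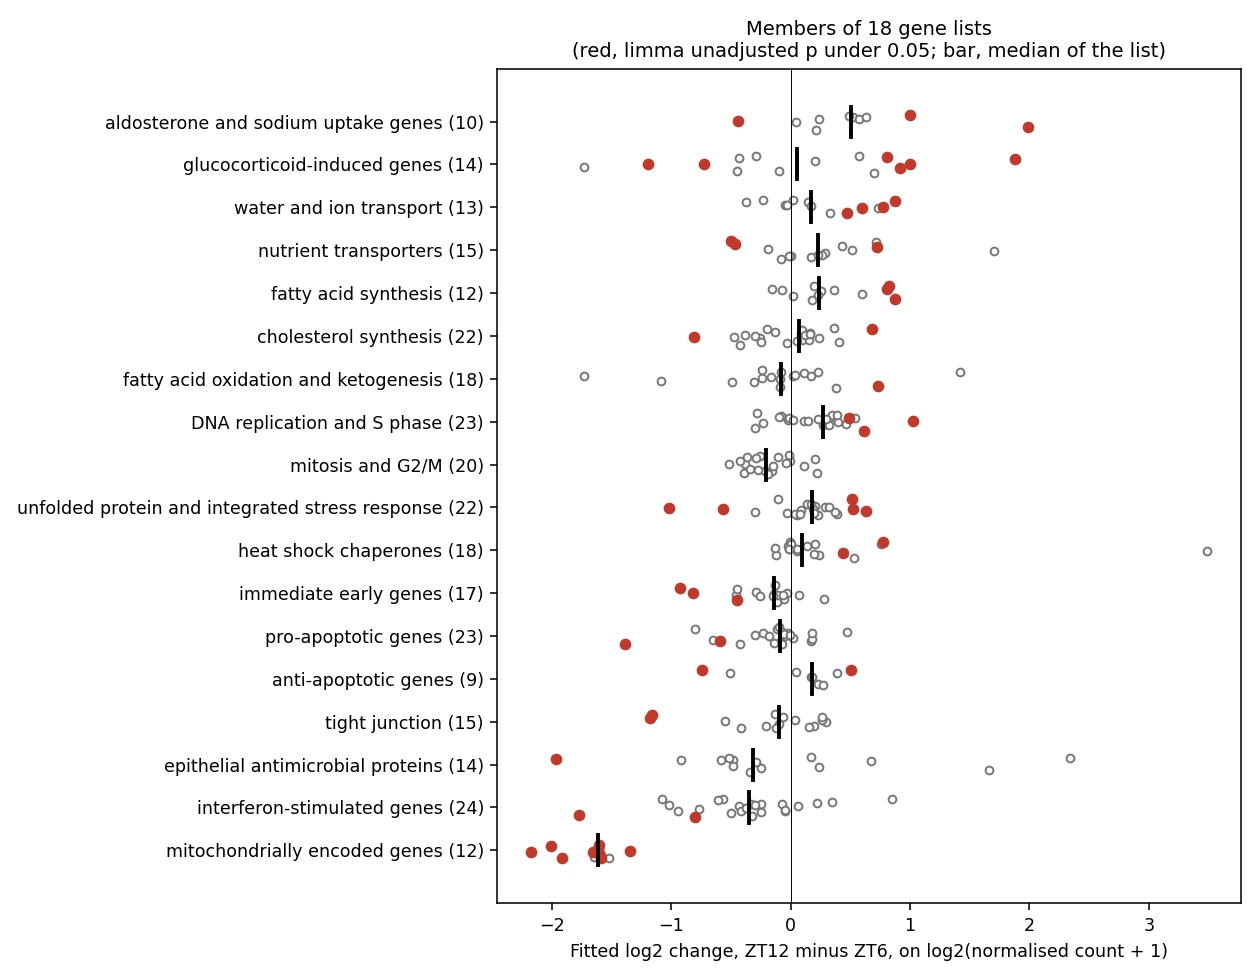
Fitted log2 differences (x axis, ZT12 minus ZT6, of log2(normalised count + 1)) of the tested members of 18 gene lists (rows, number tested in brackets), with filled red points for an unadjusted limma p under 0.05, open points for the rest and a bar at the median of each list. The mitochondrially encoded genes lie at -1.34 or below with a median of -1.61, and the other 17 medians lie between -0.35 and 0.51.

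The largest median differences of all lists were those of smooth muscle and fibroblast markers. Of 8 tested smooth muscle markers 6 were higher at an unadjusted p under 0.05 (background 3.34%) and the median was 5.51; of 9 fibroblast markers 3 were, with a median of 4.09. Myh11, the smooth muscle myosin heavy chain, was at 4.93 and 6.53 normalised counts at ZT6 and at 1662 and 80.7 at ZT12 (5.79 ± 1.28, limma adjusted p 0.697, DESeq2 adjusted p 0.000228). Acta2, smooth muscle actin, was at 2.46 and 0 against 769 and 62.3, and Actg2 at 0 in both ZT6 libraries against 434 and 21.9, at least 65.6-fold higher against the mean floor of 3 reads per library. Among fibroblast genes, the collagen gene Col1a2 was at 1.23 and 13.1 against 424 and 49.6. ZT12 replicate 1 was thus the highest of the 8 libraries for these named genes, and ZT12 replicate 2 was also above both ZT6 libraries. Over the lists, 7 of 8 smooth muscle and 5 of 9 fibroblast markers were higher in both ZT12 libraries (background 23.5%). The other 1 and 4 overlapped. The summed smooth muscle level was 837 and 968 at ZT6 and 5593 and 1325 at ZT12, and the fibroblast level 188 and 282 at ZT6 and 3166 and 324 at ZT12. In ZT0 replicate 2 the fibroblast level was 958, above that of ZT12 replicate 2. The smooth muscle and fibroblast medians were 7.45 and 5.93 without ZT12 replicate 2, and 3.56 and 2.23 without ZT12 replicate 1. B and plasma cell markers had a median of 1.67, which was -0.28 without that library, and myeloid markers 1.61, which was -0.31 without it. Among epithelial subtypes, medians were -0.08 for colonocyte, -0.15 for goblet, 0.05 for stem cell and 0.43 for enteroendocrine markers. All of these medians changed sign in at least 1 alternative. Of 11 enteroendocrine markers 1 was higher at an unadjusted p under 0.05 (background 3.34%), and their median was -0.10 with the stromal covariate. Insl5, a hormone of colonic enteroendocrine cells, was at 391 and 337 against 552 and 1081 (1.09 ± 0.37). Fewer cells of a type and less RNA per cell cannot be told apart in bulk samples. The part of these markers' RNA in the other differences was not tested. The values given without ZT12 replicate 1 or with the marker covariate are no such test, since most markers were higher in both ZT12 libraries.

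The 2 ZT12 libraries were then set separately against the ZT6 mean, which both differences share, so that a like difference in both is no independent evidence. At least a 2-fold difference was seen for 1539 genes in replicate 1 (901 higher, 638 lower) and for 1116 genes in replicate 2 (548 higher, 568 lower). The clock genes lay near the line of equal difference, whereas most smooth muscle and fibroblast markers lay far towards replicate 1. Single genes stood out in replicate 2 alone. Pbsn and Tgm4, known as prostate genes, were at 1299 and 715 there and at 0 and 15.9 in replicate 1, and Mptx2 was at 742 against 0. Retnlb, an antimicrobial protein of goblet cells, was at 35885 in replicate 2 and at 897 in replicate 1, beside 1111 and 1132 at ZT6. DESeq2 called Pbsn, Tgm4 and Mptx2, whose calls rest on that 1 library and which were named after their values were seen.

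**Figure D4:**
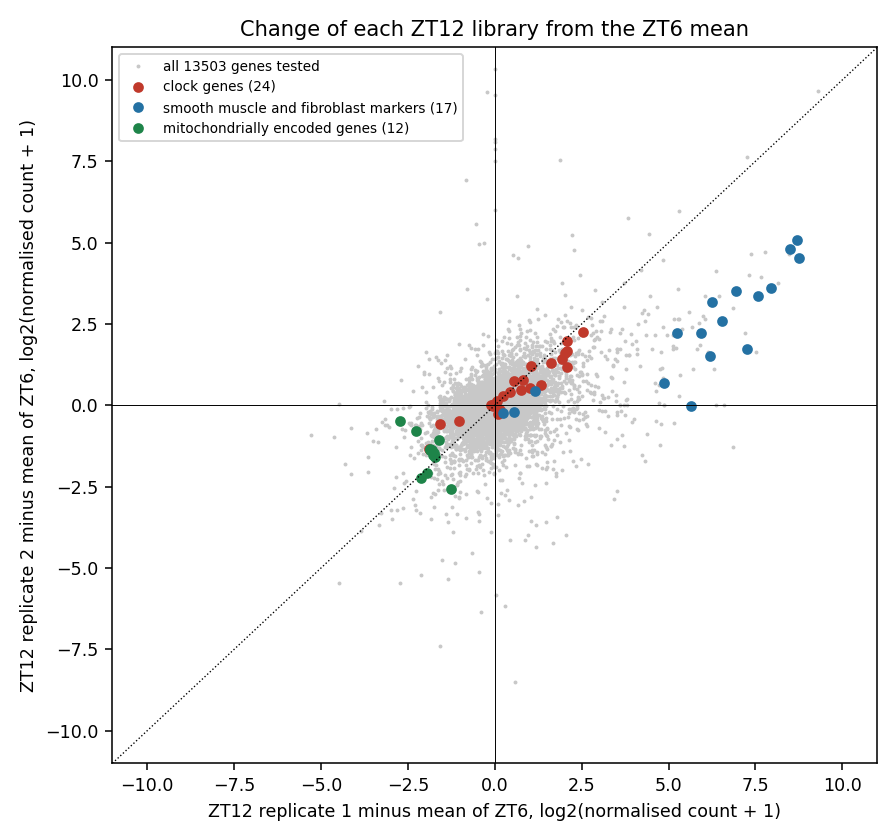
Difference of ZT12 replicate 1 (x axis) and of ZT12 replicate 2 (y axis) from the mean of the ZT6 libraries on the log2(normalised count + 1) scale for 13503 genes (grey), with 24 clock genes in red, 17 smooth muscle and fibroblast markers in blue and 12 mitochondrially encoded genes in green; the dotted line marks equal differences. Red points and most green points lie near the line, while most blue points lie to its right, towards replicate 1.

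The largest fitted differences belonged to a family with close copies. Trim12a and Trim5, members of the tripartite motif family of antiviral factors on chromosome 7, had 0 reads in both ZT6 libraries and 627 and 811 (Trim12a) or 151 and 198 (Trim5) normalised counts at ZT12. These are at least 207-fold and at least 50.2-fold higher levels against the mean floor of 3 reads per library. The neighbouring Trim30d, named after its values were seen, was at 45.6 and 27.2 against 781 and 1386. In ZT0 the replicates were split in the same manner, with Trim12a at 0 and 826 and Trim30d at 30.8 and 693, and both ZT18 libraries had Trim12a (1283 and 763). Gm21887 and Gm47283, close copies of each other on the sex chromosomes that were named after their values were seen, were lower at ZT12 (1688 and 2638 against 216 and 213, and 2231 and 3214 against 356 and 458) and were called by DESeq2. Trim12a and Trim30d differed between the ZT0 replicates, so a difference between samples cannot be told apart from a difference between times for them. Counts of all these genes can also depend on how the authors assigned reads that fit several copies. That assignment is not given in the sources used here.
Other large negative differences rested on few reads or 1 library. Wap, a milk protein gene, was at 6.16 and 28.3 at ZT6, at 0 in both ZT12 libraries (at least 5.50-fold lower against the floor) and at 1048 in ZT18 replicate 1 alone. Zfp984 was at 129 and 183 against 112 and 3.46, so that its difference of -2.78 ± 1.15 was -0.45 without ZT12 replicate 2.

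Finally, the step from ZT6 to ZT12 was compared with the step before it, from ZT0 to ZT6, by testing the difference between both within the same limma model. Both steps share the ZT6 libraries. No gene passed (0 of 13503; smallest limma adjusted p 0.257), and 499 had an unadjusted p under 0.05 (3.7%); edgeR called 0 and DESeq2 17. Per2, Cry1 and Nos2 were among the genes with the smallest p. Per2 had fitted differences of -0.74 from ZT0 to ZT6 and 2.40 from ZT6 to ZT12, and Cry1 of -1.64 and 0.64, so that the ZT6 libraries of both genes lay below both neighbouring times. Nos2 showed the reverse, with 14.9 and 11.2 normalised counts at ZT0, 175 and 248 at ZT6 and 64.6 and 42.7 at ZT12. Sprr1a also had its highest 2 values at ZT6, with differences of 2.57 and -3.50. Dbp and Nr1d1 followed other courses. Dbp had positive differences over both steps (4.06 and 1.67), whereas Nr1d1 was at 280 and 137 normalised counts at ZT0, 1830 and 1352 at ZT6 and 1685 and 1306 at ZT12.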

How the data were processed

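Reads of 8 libraries (2 at each of 4 time points) were aligned with STAR to GRCm38 (mm10) and normalised with DESeq2 by the authors, per the labels and the methods. The counting tool, the annotation and any use of strand are not given in the sources used here. The labels and the methods name different library kits. The values the authors deposited are a normalised signal per gene, namely counts divided by 1 size factor per library. All values were whole multiples of 1 step per library within 0.05, so whole reads were recovered (100% of values). The table's other columns hold the authors' own comparison, as log2 fold changes, their errors, a test score and p-values in the deposited table, and were not used. Of 14247 identifiers, 14239 matched GENCODE M21, and 18 symbols turned into dates were restored.

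Values were transformed as log2(normalised count + 1), which understates changes of low genes. Genes with a mean of at least 10 were fitted with limma 3.58.1 (lmFit, eBayes with a mean-variance trend, R 4.3.3) over all 8 libraries, with 4 residual degrees of freedom, two-sided tests and Benjamini-Hochberg adjustment at 0.05. The contrasts were ZT12 minus ZT6 and the difference between this step and the step from ZT0 to ZT6. edgeR 4.0.16 (quasi-likelihood) and DESeq2 1.42.0 on the recovered reads, other scalings, filters and pseudocounts, omission of each library, a replicate block and a stromal covariate were the alternatives. The scripts were tested on simulated data. The members and gene lists were chosen with earlier results of these data known. Genes were named by a rule. It took any called gene, the 10 higher and 10 lower genes with the smallest p and the 5 with the largest change in each direction among non-overlapping genes (mean of 50 or more, no Gm or Rik symbol), all tested clock genes, and up to 4 genes of each other list with the smallest p, with cell type markers. S100g, Casp4, Fkbp5, Ddit4, Pbsn, Tgm4, Mptx2, Trim30d, Gm21887, Gm47283, overlapping genes (Camta1, Thra, Sphk2), Epcam, Cdh1 and mt-Co1, mt-Nd1, mt-Cytb, mt-Nd3 and mt-Nd4l were named outside it. Some genes that the rule names are not reported here.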

Additional observations from a re-analysis of the deposited data

How the results depend on the processing

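With limma, 0 genes were called for ZT12 against ZT6 under TMM scaling, quantile normalisation, scaling to reads outside the mitochondrial genome, a mean of at least 50, pseudocounts of 0.1 and 5, no variance trend and the stromal covariate, and 0 with edgeR. The count was 12 with the 4 libraries of ZT6 and ZT12 alone, 49 with DESeq2 and 1 (Per2) with no filter on low values, and the cause was not tested. Leaving out 1 library gave 0 to 8 calls, 6 and 8 without ZT0 replicates 1 and 2, 8 without ZT12 replicate 1, and 4 without either ZT18 library. Against 915 genes at an unadjusted p under 0.05, the 4 libraries gave 1561, the stromal covariate 523, and omission of 1 library 282 to 1253, with 282 and 400 without ZT6 replicates 1 and 2 and 490 without ZT12 replicate 1. For the difference between both steps, DESeq2 called 17 genes, and omission of 1 library gave 0 to 4 (4 and 2 without ZT0 replicates 1 and 2, and 1 each without ZT12 replicate 1 or either ZT18 library). Replicate numbers were not taken as pairs in the main model. Over genes, the deviations of replicate 1 at ZT6 and at ZT12 correlated at -0.036. ZT0 and ZT18 were not compared in this way, so a pairing by replicate number is not excluded. With the replicate block 0 genes were called and 775 had an unadjusted limma p under 0.05. Of 40 gene list medians 20, and of 172 named genes 31, changed sign in at least 1 alternative, 26 of the named genes under the stromal covariate.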
